A study of Mus musculus with 15 samples.

Results

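Astrocyte genes were followed across brain region and across genotype in mice that make human α-synuclein in oligodendrocytes. The set holds 39 genes named for their place in astrocyte identity, in regional astrocyte differences or in reactive astrocytes, out of 27179 gene IDs in the count table, and all 39 had a row and passed the filter on low counts that left 17151 genes. By role they are 2 filament proteins, 4 proteins of glutamate and GABA handling, 7 water, ion and junction proteins, 4 metabolic or calcium-binding proteins, 5 transcription factors, receptors or secreted proteins, 3 metallothioneins, 10 genes known from all reactive states in mouse (pan-reactive) and 4 known from the state called A2.

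Total RNA of mouse brain was sequenced after removal of ribosomal RNA in 15 libraries, all from mice 12 months old. The TG animals (7 libraries, 4 female and 3 male) were homozygous for the PLP-α-synuclein transgene, whose PLP promoter drives the human protein in myelin-forming oligodendrocytes. The WT animals (8 libraries, 4 female and 4 male) were non-transgenic, on the C57Bl/6 background. Each library has its own sample label, and a p-value here measures spread among these samples only. Within each genotype and sex, all sample titles open with the same number, which the labels do not explain. Whether it marks a shared cage, litter or animal is not stated, and whatever it marks cannot be told apart from the group; if libraries under 1 number share a source, the p-values are too small. Between 15170772 and 35850998 counts were assigned to genes per library (median 17635366).

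The tissue is labelled as hemisphere, but the libraries carried markers of different brain regions, and 4 marker genes outside the set were used to sort them. Hoxa5, a patterning gene of the hindbrain, lay between 69.3 and 121 CPM (counts scaled to library size) in TG females 1 and 4, WT male 3 and WT female 3, the hindbrain libraries. Gabra6, a receptor subunit of cerebellar granule cells, lay at 700.5 CPM in TG female 3, the single cerebellum library. Omp, made by olfactory sensory neurons whose axons end in the bulb, lay between 42.2 and 159 CPM in the 7 olfactory libraries, which were TG female 2, TG males 1 and 3, WT males 1 and 2 and WT females 1 and 4. Neurod6, a factor of cortical excitatory neurons, lay between 131 and 171 CPM in the 3 cortex libraries, which were TG male 4, WT male 4 and WT female 2. The olfactory libraries were not uniform, with Neurod6 between 4.35 and 55.8 CPM. In that class WT males 1 and 2 had the lowest Omp (42.2 and 50.2 CPM) and the highest Neurod6 (20.3 and 55.8 CPM). The part of such differences in the genotype values was not tested. Because these classes were made from the libraries themselves, differences between them are described here without a test. No TG male was among the hindbrain libraries, and both TG hindbrain libraries were female.

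Astrocytes take up glutamate and GABA at synapses, buffer ions and water at their endfeet on vessels, and are joined into networks by gap junctions. Their make-up differs by region, and in many disorders they become reactive, raising filament proteins and secreted factors, in states that mouse studies have named A1 and A2. In bulk tissue, fewer cells of a type and less RNA per cell cannot be told apart.

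The metallothioneins, small proteins that bind zinc and copper, are neighbours in the genome. RefSeq on GRCm38.p6 places Mt3 at chr8:94152607-94154148, Mt2 at chr8:94172618-94173567 and Mt1 at chr8:94178883-94180327, all on the forward strand. The 250 bases before the start of Mt2 and of Mt3 are shown because Mt2 moved more between regions than its neighbour Mt3, as described with the metallothionein levels. Capitals mark matches, on either strand, to TGCGCNC or TGCACNC, the core letters of the metal response element. The sequences are RefSeq's, forward strand, chr8:94172368-94172617 for Mt2 and chr8:94152357-94152606 for Mt3.
Mt2: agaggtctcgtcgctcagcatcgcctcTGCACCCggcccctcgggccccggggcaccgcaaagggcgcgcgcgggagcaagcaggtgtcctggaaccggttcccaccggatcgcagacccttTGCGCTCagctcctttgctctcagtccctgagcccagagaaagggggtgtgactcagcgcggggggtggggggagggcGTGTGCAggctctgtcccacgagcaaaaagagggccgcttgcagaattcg
Mt3: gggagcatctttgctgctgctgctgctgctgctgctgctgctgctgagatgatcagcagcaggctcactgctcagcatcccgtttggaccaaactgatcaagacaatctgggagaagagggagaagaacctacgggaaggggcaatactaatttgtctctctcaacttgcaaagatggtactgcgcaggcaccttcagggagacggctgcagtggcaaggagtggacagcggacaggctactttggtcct
The Mt2 window held 3 matches, 2 on the forward and 1 on the reverse strand, with no overlaps, and the Mt3 window held 0. The window that the RefSeq table gives for Mt1 held 1 match but lies mostly inside the RefSeq span of the gene, so it is not shown. Of 32851 promoter windows of that length, 21.4% held at least 1 match and 1.26% held at least 3. A match is a description of letters and not a site of binding, and the lack of one says only that these letters are not in this window.

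Across regions, the astrocyte genes as a set were highest in the hindbrain libraries. Of the 39 genes, 22 lay wholly above and 1 lay wholly below their olfactory range in the hindbrain libraries, where 50.4% of all genes tested had ranges that did not overlap (24.7% higher and 25.7% lower). Set against cortex, 30 were wholly higher and 3 wholly lower in hindbrain, where 59.1% of all genes did not overlap (29.8% higher and 29.3% lower). Cortex against olfactory gave 5 wholly higher and 12 wholly lower, with 37.8% of all genes not overlapping (19.9% higher and 17.9% lower). The median log2 difference over the 39 genes was 0.69 for hindbrain minus olfactory, -0.20 for cortex minus olfactory and 0.95 for hindbrain minus cortex, where the medians over all genes were 0.00, -0.01 and 0.01. Log2 and fold differences between classes come from a model that also holds genotype and sex, so they can differ from ratios of the CPM given. The order of class means was hindbrain highest and cortex lowest for 24 of the 39 (61.5%), an order that 19.4% of all genes had.

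**Figure D1:**
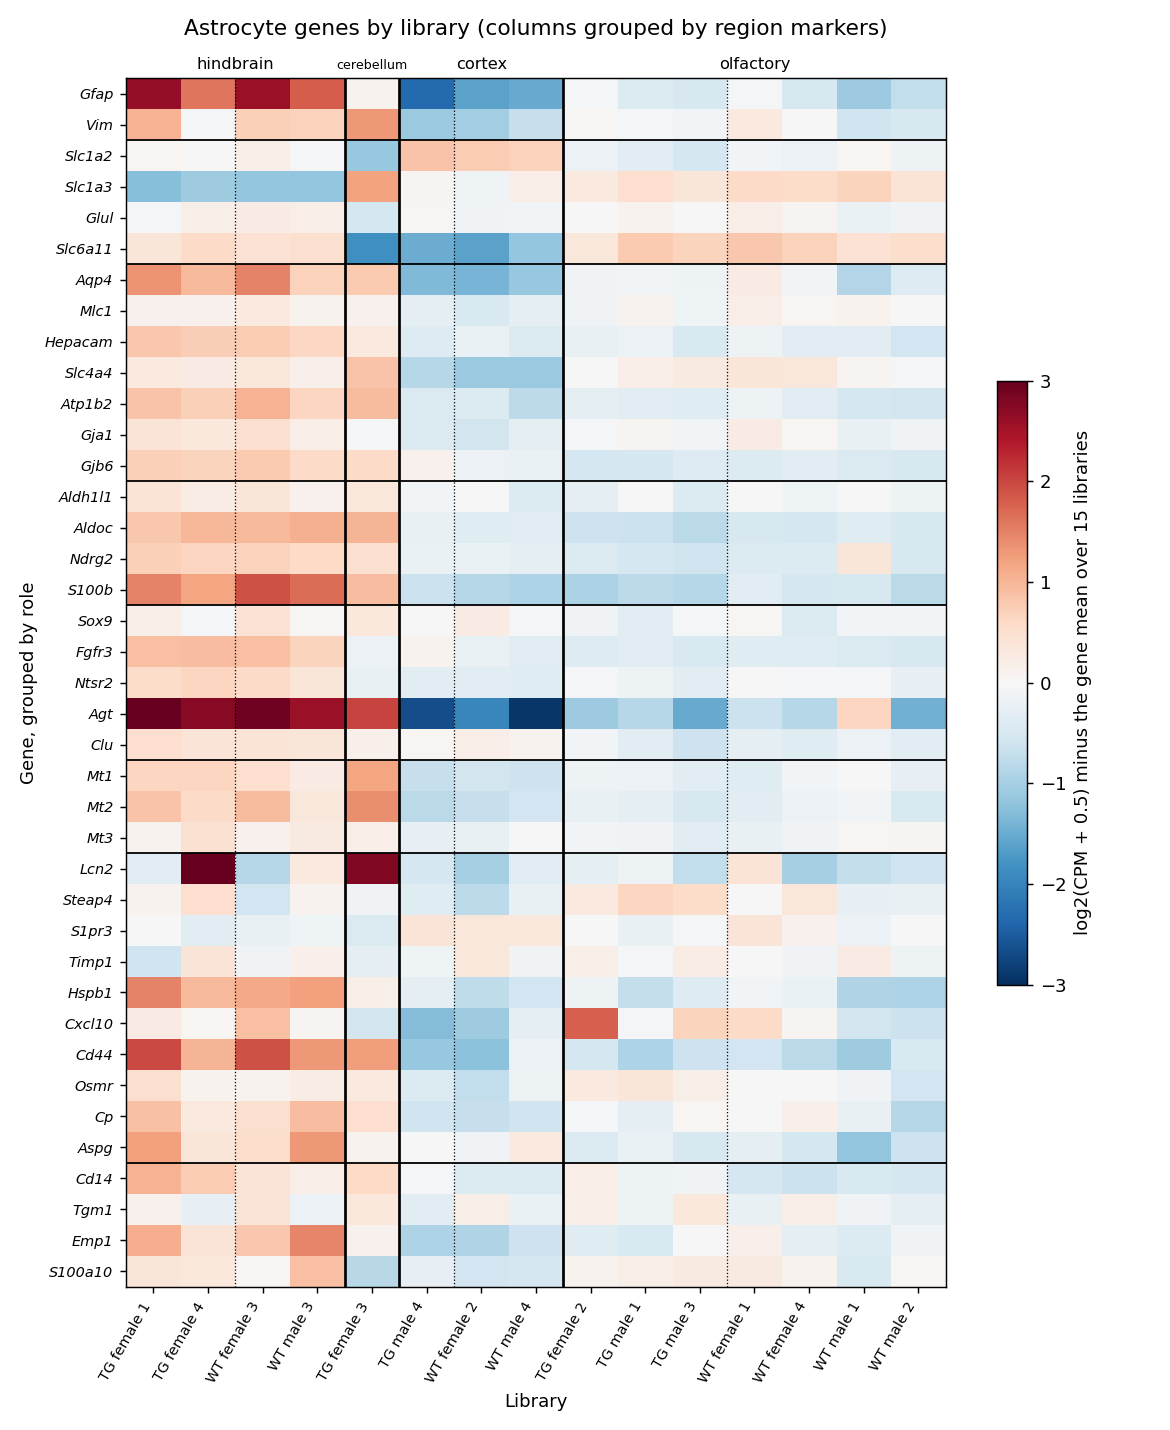
Level of each of the 39 astrocyte genes in each of the 15 libraries, as log2(CPM + 0.5) minus the mean of the gene over all libraries, with genes grouped by role and libraries by region class, TG left of WT in each class. Most rows are red in the 4 hindbrain libraries and blue in the 3 cortex libraries, while Slc1a3 is blue in hindbrain and Slc1a2 is red in cortex.

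The filament genes were highest outside the forebrain. Gfap, the intermediate filament that defines fibrous astrocytes (chr11:102887336-102897200), lay at 2094 and 1028 CPM in TG and 1179 and 2042 CPM in WT hindbrain libraries. Its level was 361 CPM in the cerebellum library, 66.3 CPM in TG and 117 and 109.7 CPM in WT cortex libraries, and 159 to 331 CPM in the olfactory libraries, with a median of 243 CPM. The classes did not overlap, and Gfap was 5.74-fold higher in hindbrain than in olfactory libraries (log2 difference 2.52 ± 0.22 SE) and 14.1-fold higher in hindbrain than in cortex (3.82 ± 0.32). Within hindbrain the spread was wide, with 1 TG and 1 WT library near the top and 1 of each near the bottom. Vim, a filament protein shared with other non-neuronal cells, lay at 41.5 and 19.3 CPM in TG and 32.5 and 33.2 CPM in WT hindbrain libraries. It lay at 49.7 CPM in cerebellum, 9.0 CPM in TG and 12.2 and 9.51 CPM in WT cortex libraries, and 12.99 to 24.6 CPM in the olfactory libraries (median 19.4 CPM). TG female 4 thus fell inside the olfactory range for Vim, and hindbrain minus olfactory was 0.72 ± 0.20.

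The transmitter transporters ran in different directions. Slc1a3, a glutamate transporter abundant in Bergmann glia of the cerebellum, was the 1 astrocyte gene wholly lower in hindbrain than in olfactory libraries. It lay at 219 and 254 CPM in TG and 234 and 237 CPM in WT hindbrain libraries, 565 CPM in TG and 613 and 490.0 CPM in WT cortex libraries, and 649 to 845 CPM in the olfactory libraries (median 752 CPM). The hindbrain level was 3.09-fold lower than the olfactory one, with a log2 difference of -1.63 ± 0.09, while the cerebellum library had the highest value of all at 1231 CPM. Slc1a2, the main glutamate transporter of forebrain astrocytes, was instead highest in cortex. It lay at 2421 and 2361 CPM in TG and 2263 and 2684 CPM in WT hindbrain libraries, 4212 CPM in TG and 3779 and 3927 CPM in WT cortex libraries, and 1618 to 2405 CPM in the olfactory libraries (median 2072 CPM). The cerebellum library had the lowest value, 1050.3 CPM, and cortex was 1.96-fold above olfactory (0.97 ± 0.09). Slc6a11, a GABA transporter, lay between 543 and 624.7 CPM in hindbrain and 531 and 735 CPM in olfactory libraries, against 137 to 189 CPM in cortex and 117 CPM in cerebellum, and cortex minus olfactory was -2.04 ± 0.13. Glul, the enzyme that turns glutamate into glutamine, was the most even of these genes between hindbrain, cortex and olfactory libraries. Hindbrain minus olfactory was 0.12 ± 0.09 and cortex minus olfactory was -0.06 ± 0.09. The cerebellum library had the lowest Glul of all libraries, at 1049 CPM.

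**Figure D2:**
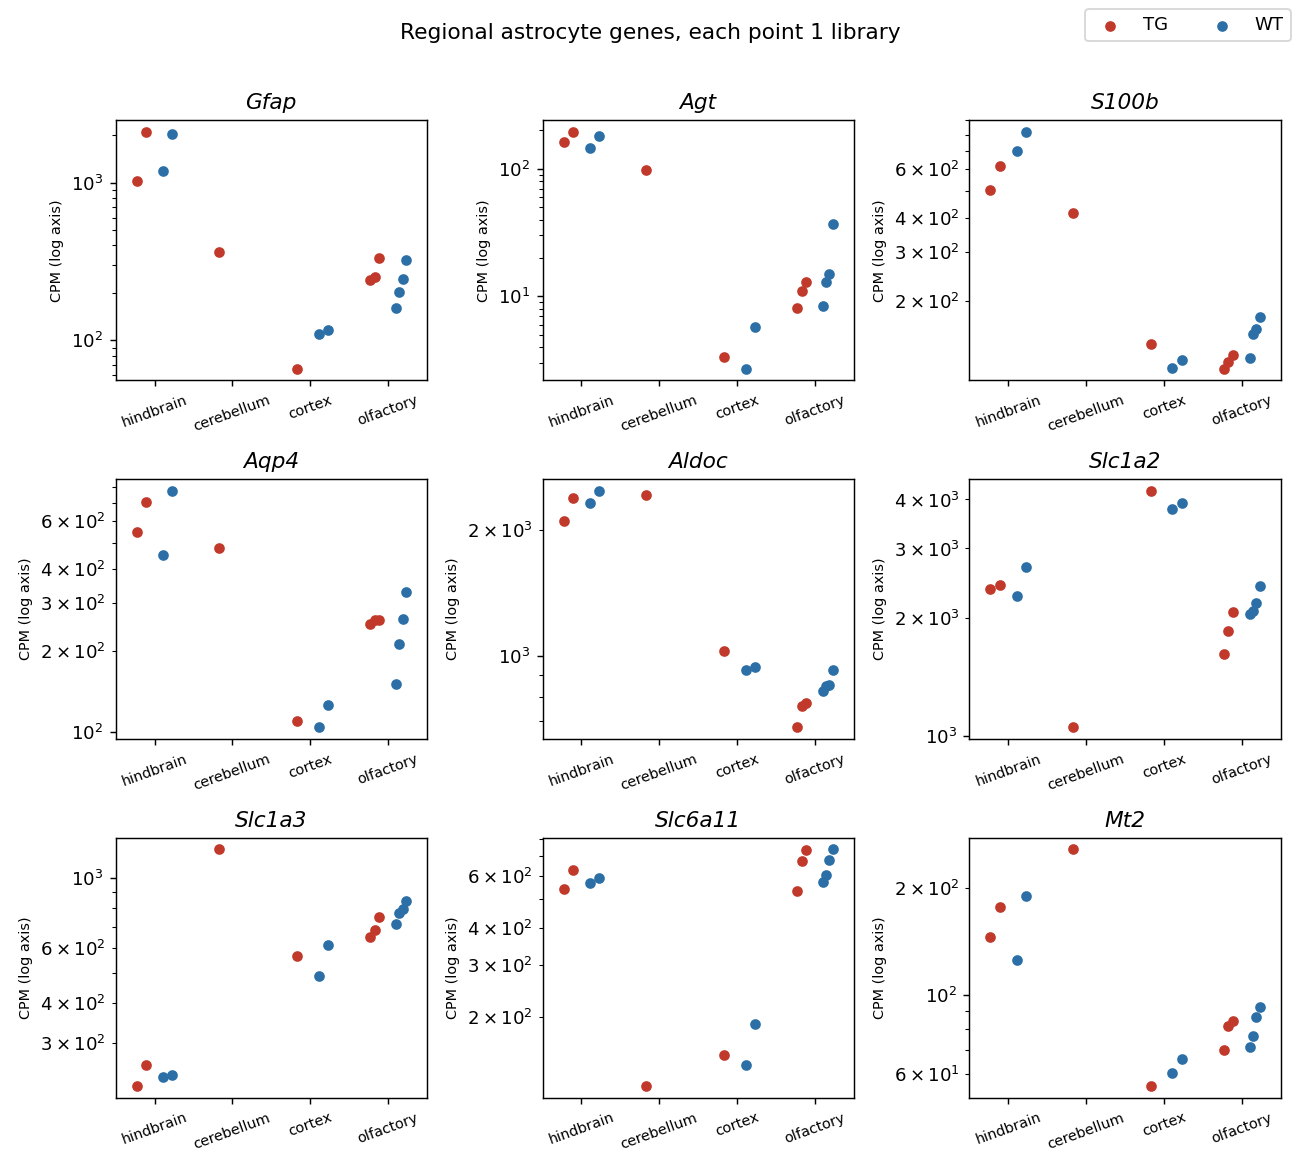
CPM (log axis) of 9 astrocyte genes by region class, with each point 1 library and TG (red) left of WT (blue). Gfap, Agt and S100b are highest in hindbrain, Slc1a2 in cortex and Slc1a3 in the cerebellum library, while Slc6a11 is lowest in cerebellum and cortex.

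Genes of water, ion and junction handling were higher in hindbrain than in cortex for 7 of 7 genes without overlap. That held for 29.8% of all genes. Aqp4, the water channel of vascular endfeet, lay at 706 and 547 CPM in TG and 449 and 778 CPM in WT hindbrain libraries, 477 CPM in cerebellum, 109.7 CPM in TG and 126 and 104 CPM in WT cortex libraries, and 151 to 330.43 CPM in olfactory libraries (median 258 CPM). The 3 larger classes did not overlap, and the log2 difference was 1.22 ± 0.17 for hindbrain minus olfactory and 2.27 ± 0.23 for hindbrain minus cortex. Atp1b2, a subunit of the sodium pump, lay at 1446 and 1319 CPM in TG and 1260.4 and 1645 CPM in WT hindbrain libraries, 1555 CPM in cerebellum, 593 CPM in TG and 467 and 601 CPM in WT cortex libraries, and 547 to 724 CPM in olfactory libraries (median 638 CPM). Cortex and olfactory overlapped for Atp1b2, while hindbrain minus olfactory was 1.12 ± 0.08. Gjb6, a gap junction connexin, lay at 142 and 136 CPM in TG and 129.9 and 149.9 CPM in WT hindbrain libraries, 128 CPM in cerebellum, 93.8 CPM in TG and 75.0 and 76.9 CPM in WT cortex libraries, and 59.6 to 69.6 CPM in olfactory libraries (median 64.2 CPM). Its order was hindbrain, cortex, olfactory, with hindbrain minus olfactory at 1.12 ± 0.07 and cortex minus olfactory at 0.37 ± 0.08. Gja1, the other astrocyte connexin, differed less, with hindbrain minus olfactory at 0.32 ± 0.09 and overlapping ranges. Hepacam, an adhesion protein, had a hindbrain minus olfactory difference of 1.00 ± 0.07, while Mlc1, its endfoot partner, had one of 0.13 ± 0.07 with overlapping ranges. Slc4a4, a sodium bicarbonate transporter, was even between hindbrain and olfactory libraries (0.05 ± 0.09), lower in cortex than in olfactory (-1.20 ± 0.10) and highest in the cerebellum library at 569 CPM.

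All 4 metabolic and calcium-binding genes were wholly higher in hindbrain than in olfactory libraries, where 24.7% of all genes were. S100b, a calcium-binding protein that oligodendrocytes also make, lay at 614 and 502 CPM in TG and 696 and 818 CPM in WT hindbrain libraries. It lay at 415 CPM in cerebellum, 139.5 CPM in TG and 114 and 121 CPM in WT cortex libraries, and 113 to 174 CPM in olfactory libraries (median 127 CPM), and hindbrain was 4.78-fold above olfactory (2.26 ± 0.12). Cortex and olfactory overlapped for S100b. Aldoc, a glycolytic aldolase, lay at 2104 and 2392 CPM in TG and 2483 and 2326 CPM in WT hindbrain libraries, 2419.9 CPM in cerebellum, 1029 CPM in TG and 943 and 927 CPM in WT cortex libraries, and 676 to 926 CPM in olfactory libraries (median 826 CPM). Hindbrain minus olfactory was 1.55 ± 0.08 for Aldoc, and the lowest cortex library lay just above the highest olfactory one. Ndrg2, a cytoplasmic protein abundant in astrocytes, lay at 1023 and 973 CPM in TG and 951 and 1019 CPM in WT hindbrain libraries, 872 CPM in cerebellum, 544 CPM in TG and 521 and 549 CPM in WT cortex libraries, and 413 to 807 CPM in olfactory libraries (median 471 CPM). WT male 1 alone made the top of that olfactory range, and hindbrain minus olfactory was 1.02 ± 0.16. Aldh1l1, a folate enzyme used as an astrocyte marker, had the smallest difference of the 4 at 0.41 ± 0.11.

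Agt, the angiotensin precursor that hindbrain and hypothalamic astrocytes secrete (chr8:124556587-124569706), had the largest regional difference of the 39 genes. It lay at 195 and 161 CPM in TG and 145 and 182 CPM in WT hindbrain libraries, 97.9 CPM in cerebellum, 3.32 CPM in TG and 2.72 and 5.79 CPM in WT cortex libraries, and 8.07 to 37.2 CPM in olfactory libraries (median 12.9 CPM). No class overlapped another, and hindbrain was 11.8-fold above olfactory (3.56 ± 0.38) and 45.1-fold above cortex (5.49 ± 0.58). Fgfr3, a growth factor receptor, lay at 325 and 327 CPM in TG and 274 and 322 CPM in WT hindbrain libraries, 153 CPM in cerebellum, 185 CPM in TG and 136 and 151 CPM in WT cortex libraries, and 124 to 138 CPM in olfactory libraries (median 131 CPM). Only the hindbrain libraries stood clear of the others for Fgfr3, at 1.22 ± 0.07 over olfactory. Ntsr2, a neurotensin receptor, and Clu, a secreted chaperone, were wholly higher in hindbrain than in olfactory libraries by 0.62 ± 0.06 and 0.69 ± 0.08. Sox9, a transcription factor of astrocyte nuclei, overlapped in every pair of the 3 larger classes, with hindbrain minus olfactory at 0.29 ± 0.11 and hindbrain minus cortex at 0.08 ± 0.13, while the cerebellum library (42.0 CPM) lay above the olfactory range.

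Metallothioneins were wholly higher in hindbrain than in either olfactory or cortex libraries, and Mt1 and Mt2 were highest of all in the cerebellum library. Of all genes tested, 24.7% were wholly higher in hindbrain than in olfactory libraries and 29.8% than in cortex libraries. Mt2 lay at 176 and 145 CPM in TG and 125 and 189.9 CPM in WT hindbrain libraries, 257 CPM in cerebellum, 55.4 CPM in TG and 65.8 and 60.3 CPM in WT cortex libraries, and 69.8 to 92.4 CPM in olfactory libraries (median 81.7 CPM). Mt1 lay at 134 CPM in both TG and at 101 and 122 CPM in WT hindbrain libraries, 196 CPM in cerebellum, 52.8 CPM in TG and 55.8 and 58.5 CPM in WT cortex libraries, and 66.1 to 84.1 CPM in olfactory libraries (median 76.0 CPM). Mt3, the brain form, lay at 51.3 and 65.6 CPM in TG and 57.8 and 52.4 CPM in WT hindbrain libraries, 54.7 CPM in cerebellum, 39.96 CPM in TG and 47.9 and 40.8 CPM in WT cortex libraries, and 38.5 to 50.2 CPM in olfactory libraries (median 44.4 CPM). Mt3 kept the order but in a narrower span, with hindbrain minus cortex at 0.45 ± 0.11, against 1.34 ± 0.14 for Mt2 and 1.08 ± 0.11 for Mt1. The 3-match window belongs to Mt2, which had the widest span of the 3, and the 0-match window to Mt3. These windows were shown because the spans of their genes differed, and a link between matches and span was not tested.

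**Figure D3:**
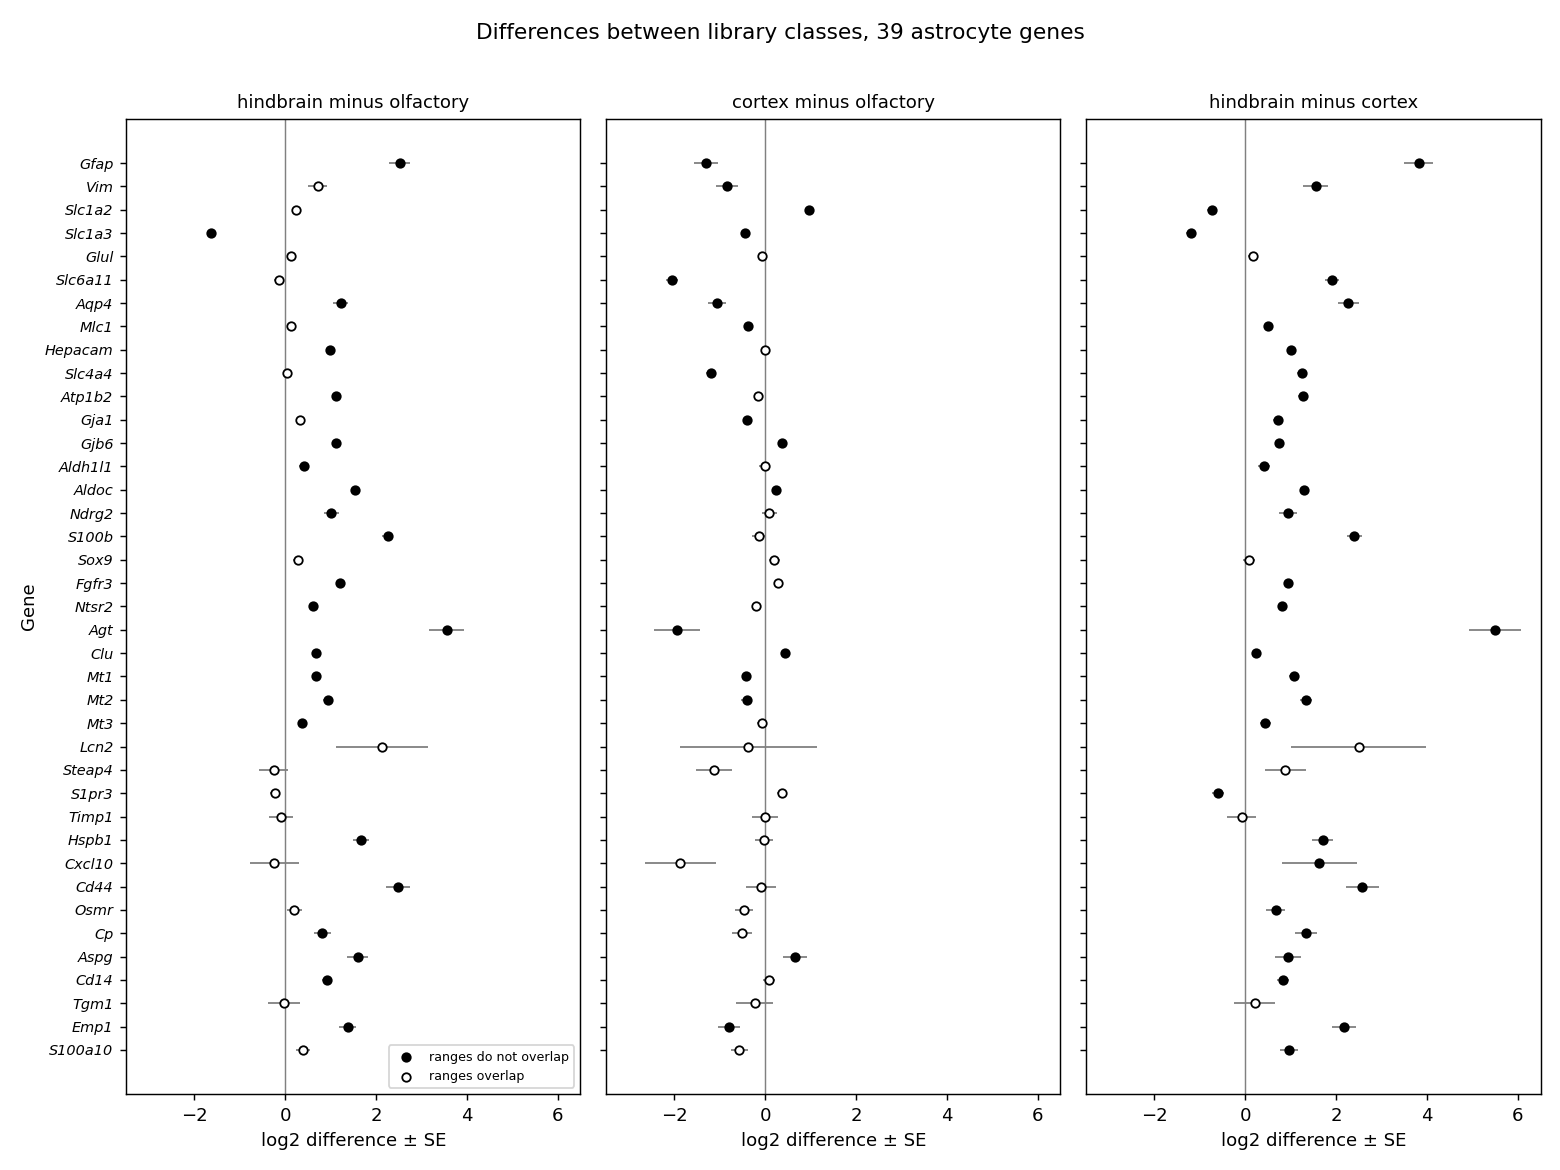
Log2 difference between classes, from the model with genotype and sex, with its SE for each of the 39 genes. Panels show hindbrain minus olfactory, cortex minus olfactory and hindbrain minus cortex, with filled points where the ranges of the libraries do not overlap. The filled points lie mostly to the right of 0 in the left and right panels, apart from Slc1a3 on the left and Slc1a3, Slc1a2 and S1pr3 on the right.

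Of the 14 pan-reactive and A2 genes, 6 were wholly higher in hindbrain than in olfactory libraries and 8 overlapped. Of all genes tested, 24.7% were wholly higher. Cd44, a hyaluronan receptor, lay at 19.9 and 9.87 CPM in TG and 12.0 and 18.9 CPM in WT hindbrain libraries, 11.8 CPM in cerebellum, 1.83 CPM in TG and 4.07 and 1.69 CPM in WT cortex libraries, and 1.97 to 3.22 CPM in olfactory libraries (median 2.85 CPM), so that hindbrain was 5.59-fold above olfactory (2.48 ± 0.26). The same libraries were high and low within hindbrain as for Gfap. Hspb1, a small heat shock protein, lay at 26.6 and 18.7 CPM in TG and 22.3 and 20.8 CPM in WT hindbrain libraries, 10.4 CPM in cerebellum, 7.45 CPM in TG and 5.99 and 5.25 CPM in WT cortex libraries, and 4.60 to 8.69 CPM in olfactory libraries (median 6.91 CPM), with hindbrain minus olfactory at 1.67 ± 0.17. Aspg, an asparaginase, lay at 10.4 and 5.45 CPM in TG and 10.9 and 6.25 CPM in WT hindbrain libraries, 4.47 CPM in cerebellum, 4.18 CPM in TG and 5.18 and 3.82 CPM in WT cortex libraries, and 1.55 to 3.57 CPM in olfactory libraries (median 2.85 CPM), a difference of 1.59 ± 0.23. Emp1, an epithelial membrane protein, lay at 7.61 and 4.48 CPM in TG and 9.86 and 6.17 CPM in WT hindbrain libraries, 3.64 CPM in cerebellum, 1.49 CPM in TG and 1.97 and 1.53 CPM in WT cortex libraries, and 2.25 to 3.68 CPM in olfactory libraries (median 2.66 CPM), with hindbrain minus olfactory at 1.38 ± 0.19. None of these 4 genes overlapped between hindbrain and the other 2 larger classes. Cp, a copper-carrying ferroxidase, was also wholly higher in hindbrain than in olfactory libraries (0.82 ± 0.18), while S100a10, an annexin partner, overlapped (0.39 ± 0.16). Cd14, described below with genotype, was wholly higher too (0.92 ± 0.11), but narrowly. Its lowest hindbrain value was 5.36 CPM in a WT library, and its highest olfactory value was 5.32 CPM in TG female 2. S1pr3, a sphingosine phosphate receptor, ran the other way, with hindbrain minus cortex at -0.59 ± 0.14. Timp1, a protease inhibitor, Tgm1, a transglutaminase, and Steap4, a metal reductase, stayed under 2 CPM in all libraries.

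Markers of some other cells moved with the region classes too. The summed level of 7 oligodendrocyte genes was 17401 to 22537 CPM in hindbrain, 5776 CPM in cerebellum, 2521 to 5162 CPM in cortex and 1829 to 3428 CPM in olfactory libraries. Of these genes, 7 of 7 were wholly higher in hindbrain than in olfactory libraries, where 24.7% of all genes were. The sum of 4 choroid plexus genes was 801 CPM in the cerebellum library and at most 34.4 CPM elsewhere, and that of 3 Bergmann glia genes was 794 CPM there and at most 286 CPM elsewhere. Microglial sums over 7 genes overlapped between the 3 larger classes, at 303 to 370.4 CPM in hindbrain, 274 to 329 CPM in cortex and 277 to 347 CPM in olfactory libraries, and were lowest in the cerebellum library at 194 CPM. Ependymal sums (5 genes) were 27.7 to 36.9 CPM in hindbrain, 7.17 to 11.8 in cortex and 8.06 to 13.9 in olfactory libraries. Neuron sums (7 genes) were 7428 to 8165 CPM in hindbrain, 7634 to 10445 in cortex and 4871 to 5760 in olfactory libraries. Meningeal fibroblast sums overlapped between hindbrain (30.2 to 101 CPM) and olfactory libraries (25.1 to 67.9 CPM). Sums for oligodendrocyte precursors, vessel cells and olfactory ensheathing glia overlapped there too, but single genes of the last 2 lists did not all overlap. Of 6 vessel genes, 4 were wholly higher and 0 wholly lower in hindbrain than in olfactory libraries (median log2 difference 0.39). Of 6 ensheathing glia genes, 1 was wholly higher and 2 wholly lower (median -1.42). Of 4 precursor genes, 0 were apart. No gene of these lists was at 0 in any class, and the part of these cells in the regional differences was not tested. Another 30 astrocyte identity genes behaved like the set, with 19 wholly higher and 2 wholly lower in hindbrain than in olfactory libraries. Among all genes 24.7% were wholly higher and 25.7% wholly lower. The median of the 30 was 0.57.

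Spread within a region class differed widely between genes. The coefficient of variation over the 4 hindbrain libraries was under 10% for 15 of the 39 genes and over 30% for 9, with a median of 12.9%. Over the 7 olfactory libraries it was under 10% for 10 genes and over 30% for 5, with a median of 15.6%. Fgfr3 was the steadiest in olfactory libraries (3.98%) and Ndrg2 in hindbrain libraries (3.59%), and Lcn2 (164% in hindbrain) and Cxcl10 (90.0% in olfactory) were the most variable.

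Between TG and WT, 1 of the 39 astrocyte genes passed the test. Genotype was tested over all 15 libraries with region class and sex in the model, by the quasi-likelihood test of edgeR (Benjamini-Hochberg adjusted p under 0.05), which called 85 of 17151 genes (0.496%), 40 higher (0.233%) and 45 lower (0.262%) in TG. Without adjustment, 3 of the 39 had a p under 0.05, where 8.4% of all genes had. The median log2 difference of the 39 was 0.00, with 18 above and 21 below 0, and that of all genes was 0.00. The 2 filament genes, the 7 water, ion and junction genes and the 3 metallothioneins had no member past the test and lay between -0.07 and 0.08, and Gfap was at 0.01 ± 0.19 (edgeR quasi-likelihood adjusted p = 0.999).

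**Figure D4:**
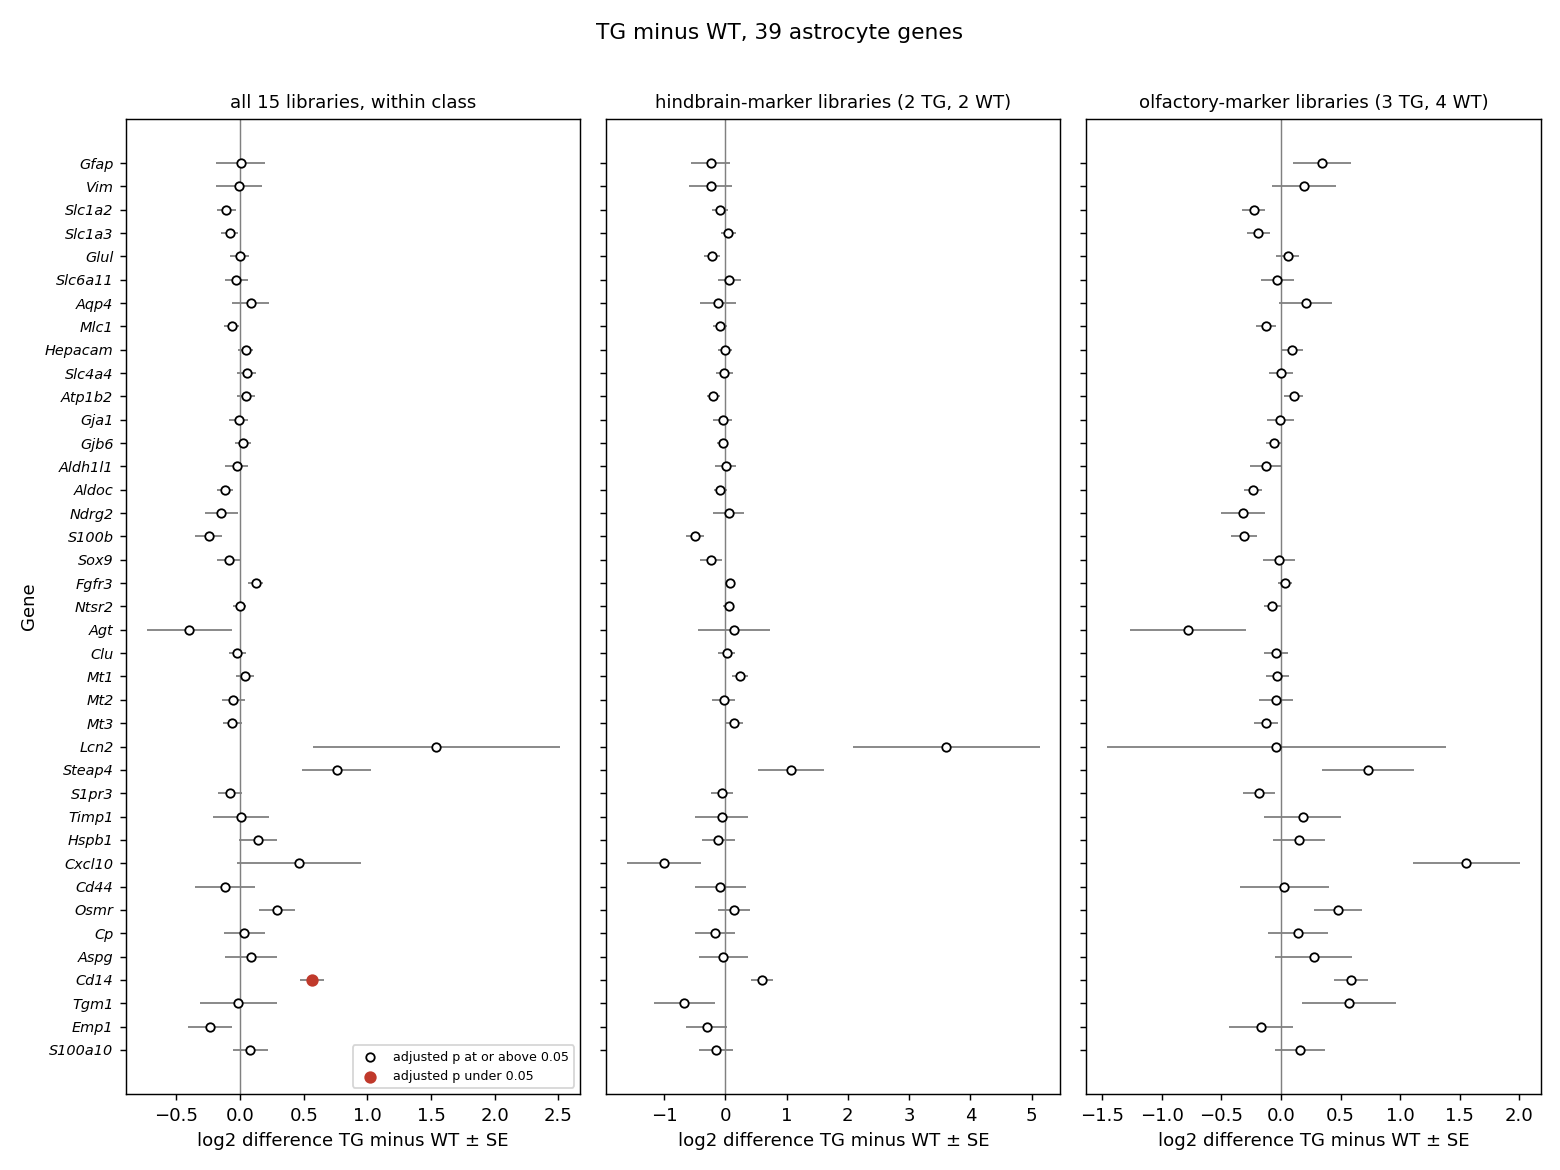
Log2 difference TG minus WT with its SE for each of the 39 genes, over all 15 libraries within class (left), in the hindbrain libraries (middle) and in the olfactory libraries (right), with a red point where the adjusted p is under 0.05. Cd14 is the 1 red point, at 0.57 in the left panel, and the widest bars belong to Lcn2.

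Cd14 was higher in TG. It encodes a co-receptor for bacterial lipopolysaccharide that is best known from microglia and other myeloid cells, and it stands on the A2 list of reactive astrocyte genes. In hindbrain libraries it lay at 9.998 and 8.06 CPM in TG and 5.36 and 6.17 CPM in WT. Olfactory libraries gave 5.32, 4.06 and 4.23 CPM in TG and 3.22, 3.08, 3.08 and 2.77 CPM in WT, and cortex libraries 4.41 CPM in TG and 3.33 CPM in both WT. The cerebellum library, which is TG and has no WT counterpart, had 7.16 CPM. TG lay above WT without overlap in each of the hindbrain, olfactory and cortex classes, while over all 15 libraries the genotypes overlapped. Of all genes, 18.6% were wholly higher in TG in hindbrain, 35.4% in cortex (1 TG library) and 3.84% in olfactory libraries. The log2 difference was 0.57 ± 0.09 (edgeR quasi-likelihood adjusted p = 0.0132). These levels rest on 50 to 222 counts per library.

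Several measurements stand beside that call. Cd14 lies at chr18:36725064-36726815, and of 72 genes tested within 1 Mb of it 16 were called for genotype (22.2%), all higher in TG and all protocadherins. Among the neighbours of the other 38 genes, 1 was called near S100b and 1 near Hspb1. The 7 microglial marker genes had a median difference of 0.00, with 4 above and 3 below 0 and none called, and none at 0. Their sum lay between 303 and 370.4 CPM in TG hindbrain libraries, with WT between 323 and 357 CPM, and between 277 and 347 CPM in TG olfactory libraries, with WT between 281 and 301 CPM. The part of the neighbouring genes and of myeloid cells in the Cd14 result was not tested. Without WT male 3 the adjusted p was 0.0569 (0.55 ± 0.10), without the hindbrain and cerebellum libraries it was 0.267 (0.54 ± 0.13), and without region class in the model it was 0.9999 (0.62 ± 0.23), all by edgeR's quasi-likelihood test.

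Steap4 and S100b had the next smallest p-values and did not pass. Steap4 lay at 0.839 and 1.25 CPM in TG and 0.818 and 0.333 CPM in WT hindbrain libraries, 0.656 CPM in the TG cerebellum library, 0.459 CPM in TG and 0.555 and 0.219 CPM in WT cortex libraries, and 1.01, 1.43 and 1.32 CPM in TG and 0.536, 0.552, 0.724 and 1.05 CPM in WT olfactory libraries. The genotypes overlapped in the olfactory and cortex classes, and the difference was 0.76 ± 0.27 (edgeR quasi-likelihood adjusted p = 0.451). S100b was at -0.25 ± 0.11 (adjusted p = 0.562), with both TG hindbrain libraries below both WT ones. In cortex the TG library (139.5 CPM) lay above both WT ones (114 and 121 CPM), and in the olfactory libraries the genotypes overlapped. The summed oligodendrocyte genes lay at 17401 and 19792 CPM in TG hindbrain libraries, with WT at 19990 and 22537 CPM, at 2521 CPM in TG cortex, with WT at 4150 and 5162 CPM, and at 2234 to 3376 CPM in TG olfactory libraries, with WT at 1829 to 3428 CPM. Their part in the S100b values was not tested.

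**Figure D5:**
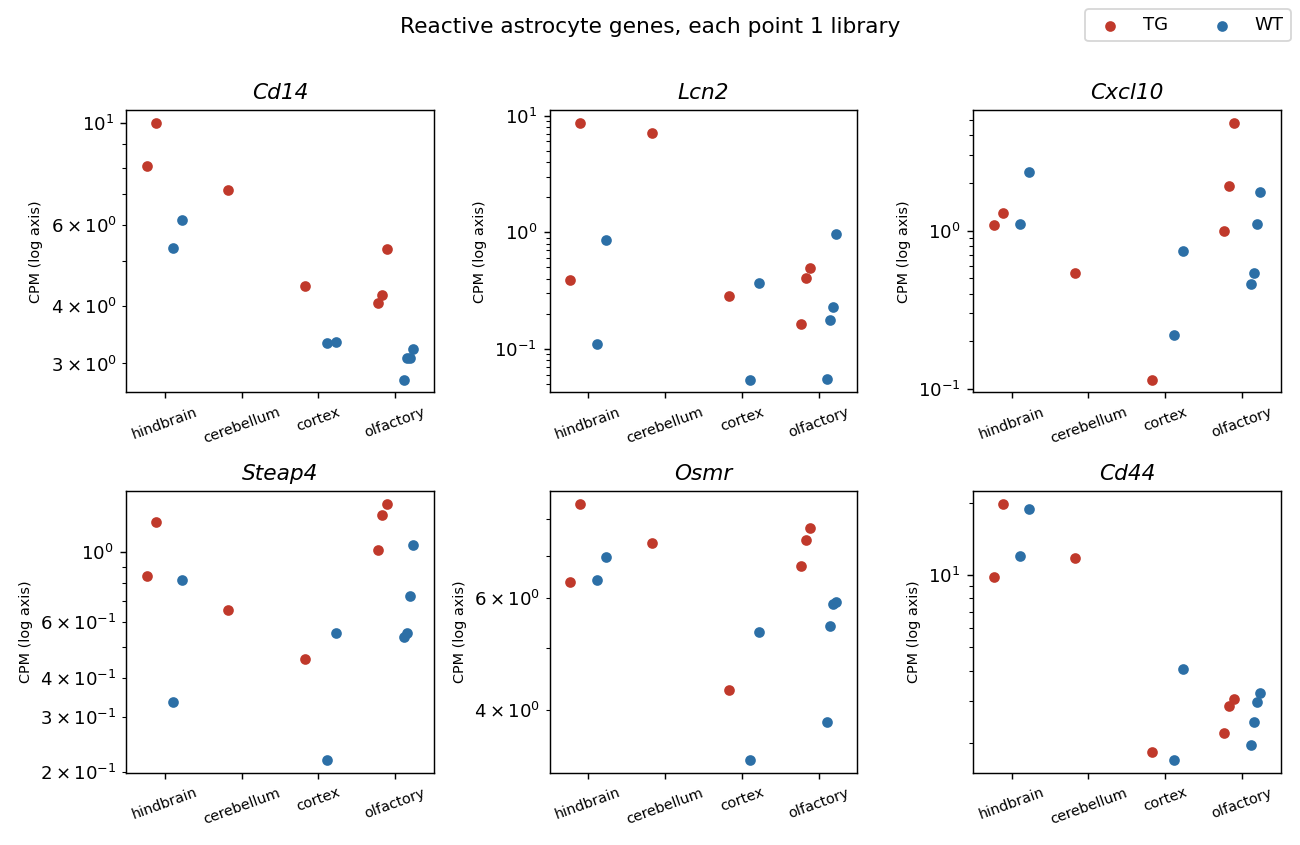
CPM (log axis) of 6 reactive astrocyte genes by region class, with each point 1 library and TG (red) left of WT (blue). Cd14 is higher in TG within hindbrain, cortex and olfactory classes, the high Lcn2 values come from TG female 4 and TG female 3, and the high Cxcl10 value from TG female 2.

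Within region classes, no astrocyte gene passed the test. In the olfactory libraries (3 TG, 4 WT) edgeR's quasi-likelihood test called 42 genes (0.245%) and 0 of the 39. Without adjustment 6 of the 39 had a p under 0.05, where 7.75% of all genes had, namely Cd14 at 0.59 ± 0.14, Cxcl10 at 1.56 ± 0.45, Osmr at 0.48 ± 0.20, Slc1a2 at -0.23 ± 0.09, Aldoc at -0.23 ± 0.08 and S100b at -0.31 ± 0.11. Osmr and Cd14 were wholly higher and Aldoc wholly lower in TG, 3 of 39 genes where 6.77% of all genes did not overlap (3.84% higher and 2.93% lower). Osmr, a receptor subunit for oncostatin M, lay at 7.40, 7.73 and 6.75 CPM in TG and 5.42, 3.82, 5.92 and 5.87 CPM in WT. Cxcl10, an interferon-induced chemokine, lay at 4.77, 0.987 and 1.92 CPM in TG and 0.536, 0.460, 1.75 and 1.11 CPM in WT, so TG female 2 stood far above the other libraries while TG male 1 lay inside the WT range. The Cxcl10 locus overlaps Art3, as Cp overlaps Hps3, Ntsr2 overlaps Lpin1 and Timp1 overlaps Syn1, so the values of these 4 genes are uncertain where the counting did not use strand. Gfap was at 0.35 ± 0.24 and overlapped (331, 253 and 241 CPM in TG and 159, 203, 321 and 243 CPM in WT).

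In the hindbrain libraries (2 TG, 2 WT) the same test called 12 genes (0.07%) and 0 of the 39. Unadjusted p-values under 0.05 belonged to 3 of them, where 5.81% of all genes had one, namely Cd14 at 0.59 ± 0.18, S100b at -0.49 ± 0.15 and Lcn2 at 3.61 ± 1.52. Lcn2, a secreted iron-siderophore carrier of reactive astrocytes, lay at 0.387 and 8.62 CPM in TG and 0.859 and 0.111 CPM in WT hindbrain libraries, so 1 TG library was high and the other lay inside the WT range. The cerebellum library had 7.10 CPM of Lcn2, and the other 13 libraries had at most 0.966 CPM, some of them from 1 count. That library is TG and has no WT counterpart, so region and genotype cannot be told apart in it. Ranges did not overlap for 6 of the 39 genes in hindbrain libraries, with Fgfr3, Mt1, Steap4 and Cd14 higher and Glul and S100b lower in TG, where 38.7% of all genes did not overlap (18.6% higher and 20% lower). With 1 TG library in cortex, 23 of the 39 did not overlap, 13 higher and 10 lower in TG, where 72.7% of all genes did not (35.4% higher and 37.3% lower). Over all 15 libraries 0 of the 39 were free of overlap, and 0.187% of all genes were.

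Whether the genotype difference itself differed between hindbrain and olfactory libraries was tested in the same model, and 2 genes (0.0117%) and 0 of the 39 passed, with 5.46% of all genes at an unadjusted p under 0.05. Cxcl10 had the smallest p of the set there, with a hindbrain minus olfactory difference in the TG effect of -2.56 ± 0.76 (edgeR quasi-likelihood adjusted p = 0.816). For Cd14 this difference was 0.01 ± 0.26.

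Sex gave no call among the astrocyte genes. Male minus female differences were called for 12 genes (0.07%) and 0 of the 39 by edgeR's quasi-likelihood test, and 4 of the 39 had an unadjusted p under 0.05, where 5.52% of all genes had. These were Gfap at -0.45 ± 0.20, Hepacam at -0.16 ± 0.06, Atp1b2 at -0.19 ± 0.07 and Ntsr2 at -0.14 ± 0.05. The genotype-by-sex interaction was called for 0 genes (0%), with 12.5% of all genes and 6 of the 39 at an unadjusted p under 0.05. Atp1b2 had the smallest p of the set at 0.40 ± 0.10 (adjusted p = 0.321 in edgeR's quasi-likelihood test), and DESeq2 called 80 genes, Atp1b2 among them. In olfactory libraries Atp1b2 lay at 639 and 624 CPM in TG males and 558 and 547 CPM in WT males, and at 651 CPM in the TG female and 724 and 638 CPM in WT females.

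Wider astrocyte lists showed no called gene for genotype. Among all genes tested, 0.496% were called, so few or no calls are the usual outcome for lists of this size. Of all genes, 50.4% lay above 0 and 8.4% had an unadjusted p under 0.05. The 30 other identity genes had a median difference of -0.05, with 7 above 0 (23.3%), 0 called and 5 with an unadjusted p under 0.05, of which Htra1, a secreted protease, had the smallest (0.27 ± 0.09, edgeR quasi-likelihood adjusted p = 0.342), followed by S1pr1, a lipid receptor (-0.15 ± 0.06). Of 12 genes of the A1 state, 11 were tested, 7 lay above 0 and 0 were called, with a median of 0.27 and Fkbp5, a glucocorticoid-responsive chaperone, at 0.31 ± 0.08 (adjusted p = 0.220). The other 8 genes of the A2 state, 7 of them tested, had a median of -0.13 and 0 called. Among markers of other cells, the 7 oligodendrocyte genes were all below 0 over the 15 libraries, with a median of -0.23 and 0 called. By class, 0 of 7 lay above 0 in hindbrain (median -0.30) and 5 of 7 in olfactory libraries (median 0.05). Ttr, a choroid plexus gene, was at -1.09 ± 0.33 (edgeR quasi-likelihood adjusted p = 0.328).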

How the data were processed

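RNA-seq was run on 15 mouse brain libraries, made per the labels' protocols with a stranded ribosomal-depletion kit (250 ng total RNA input) and read at 100 bp. The values are whole-number read counts per gene, deposited by the authors as 1 table, made with STAR 2.7.5b on GRCm38 and featureCounts of the Subread package per the submitters' processing notes. Use of strand, fragments and multimapping reads is not given in the sources used here. RefSeq named 25275 of the 27179 gene IDs. No per-sample column was left unused (0).

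Genes were kept by edgeR's filterByExpr (17151 genes), scaled by TMM and fitted in R 4.3.3 with edgeR 4.0.16 (robust quasi-likelihood, Benjamini-Hochberg threshold 0.05). The biological coefficient of variation was 14.2%. CPM are TMM-scaled, and 3 counts correspond to 0.0833 to 0.194 CPM. That floor covers counting error only; the ± SE values hold the spread between libraries. Region classes were set by Hoxa5, Gabra6 and Omp at 10 CPM or more and Neurod6 at 100 CPM or more. The genotype and sex tests held class, genotype and sex; the classwise tests held a mean for each class and genotype, and sex. A class difference is the class term of the genotype model, adjusted for genotype and sex, and is a description without a test. Levels are not compared between genes, since CPM are not scaled by length. The lowest chi-square per gene between 2 libraries was 6.03 and no pair was treated as 1 library.

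Values in each class (every library, or the lowest, median and highest of the 7 olfactory ones) are given for genes called in any test, for genes with class ranges apart and a hindbrain minus olfactory log2 difference of at least 1 in size, for the 3 smallest genotype p-values and for Gfap, Vim, Aqp4, Slc1a2, Slc1a3 and Mt1 to Mt3. Genes outside that rule (Osmr, Lcn2, Cxcl10) were chosen after their values were seen. The 39 genes and all lists were chosen with earlier results of these data known. The transgene itself is not reported here. Same-numbered samples were checked for pairing: 7 of 21 pairs had a correlation of deviations from group means over 0.1. With region class also taken out, 6 of 21 had. The numbers were therefore not used as pairs in the main tests. Region class differs between many same-numbered samples, so the check cannot exclude a pairing. Alternatives were RLE factors, no filter, DESeq2 1.42.0, limma 3.58.1 (voom), a replicate block, no class term, no sex term and left-out libraries. The scripts were tested on simulated data.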

Additional observations from a re-analysis of the deposited data

Results flagged for a closer look

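Of 78 groups of libraries examined (each of the 39 genes in the hindbrain and in the olfactory class), 7 had 1 library far from the others, measured by the gap to its nearest neighbour as a share of the group's range, which is 8.97% where chance gives about 1 in 20 groups. In the olfactory class WT male 1 stood apart for 4 genes, with Ndrg2 high at 807 CPM, Agt high at 37.2 CPM, Aspg low at 1.55 CPM and S100a10 low at 10.5 CPM, and WT male 2 stood apart for Cp, low at 5.29 CPM. In the hindbrain class WT female 3 was high for Mlc1 at 177 CPM and WT male 3 was low for Fgfr3 at 274 CPM. With TG female 2, TG female 3 and WT male 1 left out, an alternative chosen after seeing the data, Cd14 was at 0.55 ± 0.10 (edgeR quasi-likelihood adjusted p = 0.0453).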

How the results depend on the processing

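Over 18 results and 376 alternative values, 324 kept their direction and call and 0 reversed. Genotype calls over all 15 libraries numbered 175 with DESeq2, 53 with the replicate block, 19 without the class term and 41 without the hindbrain and cerebellum libraries, and among the 39 genes 0 with the block, without the class term and without those libraries (Cd14 adjusted p = 0.0564 with the block). In the olfactory libraries the calls numbered 115 with DESeq2 and 2 with the block, and in the hindbrain libraries 36 with DESeq2, 7 with voom and 1 with the block. The difference between these classes gave 34 calls with DESeq2, 1 with voom and 0 with the block, the genotype-by-sex interaction 80 with DESeq2 (1 of the 39, Atp1b2), and sex 7 without the class term. Leaving out each library in turn gave 56 to 86 genotype calls, 0 to 1 among the 39, 18 to 69 in the olfactory and 4 to 15 in the hindbrain libraries, 0 to 25 for the difference between them and 0 to 1 for the interaction. The lowest counts came without TG male 4 (56, all libraries), WT male 3 (0 of the 39), TG female 2 or TG male 3 (18, olfactory) and WT male 3 or TG female 4 (4, hindbrain). The highest came without WT male 4 (69, olfactory) and without WT male 4 or WT female 2 (25, difference between classes), and the causes were not tested. Without scaling factors the median of all genes was -0.19 for cortex minus olfactory and 0.15 for hindbrain minus cortex (log2). With TMM these medians were -0.01 and 0.01. Without factors Hepacam, Ndrg2 and Cd14 (cortex minus olfactory) and Timp1 (hindbrain minus cortex) changed sign. Timp1 also changed sign with RLE factors in cortex minus olfactory. Genes with few counts, such as Lcn2 with 1 count in some libraries, are limited by depth.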

Other observations

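In the olfactory libraries 6 of 11 tested genes of the A1 list had an unadjusted p under 0.05 for genotype and 0 passed adjustment by edgeR's quasi-likelihood test, with 8 of 11 above 0 and a median of 0.36. Over all genes tested there, 7.75% had an unadjusted p under 0.05 and 51.7% lay above 0. These genes were chosen after their values were seen. Iigp1, an interferon-induced GTPase, was at 1.31 ± 0.29, Gbp2, another, at 1.11 ± 0.29, H2-T23 and H2-D1, class I histocompatibility genes, at 0.96 ± 0.25 and 0.56 ± 0.20, Psmb8, an immunoproteasome subunit, at 0.79 ± 0.24, and Fkbp5 at 0.36 ± 0.13. The A1 list summed to 224 to 333 CPM in TG olfactory libraries, the highest in TG female 2, which also held the highest Cxcl10, and to 179 to 231 CPM in WT olfactory libraries. In the hindbrain libraries 3 of 11 lay above 0, with a median of -0.20, where 49.4% of all genes lay above 0. There 2 of 11 had an unadjusted p under 0.05 (5.81% of all genes) and 0 passed. For the hindbrain minus olfactory difference in the TG effect, 2 of 11 lay above and 9 below 0. By edgeR's quasi-likelihood test 5 of these had an unadjusted p under 0.05 (5.46% of all genes) and 0 passed.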
